A study of Caenorhabditis elegans with 10 samples.

Results

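The lipl genes of C. elegans encode homologs of human lysosomal acid lipase. All 8 genes with a lipl symbol in the deposited table, lipl-1 to lipl-8, were taken by name out of 46903 genes. The family was chosen by earlier values of the mutant strains against their parent in these same libraries, those of lipl-3 above all. Every mutant-minus-parent value of a lipl gene is therefore given as a description, without a p-value. p-values of lipl genes are given only for differences between the mutants and between replicates. These are not the contrast behind the choice. The same mutant libraries enter both, so differences between mutants are not independent of that choice. Where a lipl gene is said to pass the cutoffs against the parent, that is part of the description and nothing is read from it.

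Lysosomal acid lipases act inside the lysosome, where they release fatty acids from lipids that are delivered by autophagy or endocytosis. In C. elegans several lipl genes are part of the fasting response. HLH-30, the ortholog of the mammalian lysosomal regulator TFEB, activates lipl genes in fasted animals, while MXL-3 represses them in fed animals. LIPL-4 has been studied most, because it acts with the lipid chaperone LBP-8 and the nuclear hormone receptors NHR-49 and NHR-80 in signalling from the lysosome to the nucleus.

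The values come from RNA-seq of 5 strains with 2 replicates each. All animals, controls included, carry the transgene wwIs24[Pacdh-1::GFP;unc-119(+)], a GFP reporter under the promoter of acdh-1, and the deletion nhr-10(tm4695). On that background the mutants add the point mutations mthf-1(ww50) in strain VL1199, sams-1(ww51) in strain VL1200, metr-1(ww52) in strain VL1201 and mtrr-1(ww56) in strain VL1205. The parent is strain VL868. mthf-1, metr-1 and mtrr-1 act in making methionine from homocysteine, and sams-1 encodes a synthetase that turns methionine into S-adenosylmethionine, the methyl donor of the cell. Each mutant line carries 1 allele from a chemical mutagenesis screen and was backcrossed to the parent. Whole animals labelled as L4, and described in the methods as late L4 to early young adult, were grown on E. coli OP50 with 20 nM vitamin B12 after an L1 arrest of 18 hours. The stocks were kept at 0.64 nM vitamin B12 before that. Levels are in TPM, transcript numbers scaled for transcript length and for the total of the library, which can be compared between genes. In RNA from whole animals, fewer cells of a type and less RNA per cell cannot be told apart.

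The libraries differed in stage markers before any lipl gene was considered. The summed level of 10 hypodermis and molting genes was 1310 to 4630 TPM in the 8 mutant libraries, against 371 and 932 TPM in the parent libraries, and 9 of the 10 genes were higher in every mutant library than in both parent libraries. Within each of the 5 strains the sum was higher in replicate 1. The summed level of 7 yolk and adult-onset genes was 158 to 4410 TPM in mutant libraries and 1510 to 5280 TPM in parent libraries, and it was lower in replicate 1 in each strain. Intestinal markers, which mark the main fat-storing tissue of the worm, summed to 977 to 1490 TPM in mutant libraries and 1360 to 1760 TPM in parent libraries, and no marker was near 0. The mutated genes do not check the labels, since point mutations leave transcripts in place and all 4 of them were higher in every mutant library than in the parent libraries. Transcripts of the deleted nhr-10 were still listed at 3.13 to 6.19 TPM.

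The family was dominated by 1 member. lipl-5, whose product is an intestinal lipase of the fasting response, contributed between 82.62% and 88.01% of the summed lipl TPM in each of the 10 libraries. The sum averaged 261 ± 27.9 TPM in mthf-1(ww50), 666 ± 177 TPM in sams-1(ww51), 288 ± 5.34 TPM in metr-1(ww52), 462 ± 3.63 TPM in mtrr-1(ww56) and 430 ± 22.9 TPM in the parent (SD, n = 2 each). Without lipl-5 the averages were 33.4 TPM in mthf-1(ww50), 102 TPM in sams-1(ww51), 43.3 TPM in metr-1(ww52), 57.2 TPM in mtrr-1(ww56) and 64.6 TPM in the parent. Of the TPM of the whole family, lipl-5 included, lipl-2 held between 1.19% and 8.79% in the mutant libraries. In the parent libraries it held 9.96% and 14.49%. This share of a family has no counterpart over all genes, so nothing is read from the separation.

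**Figure D1:**
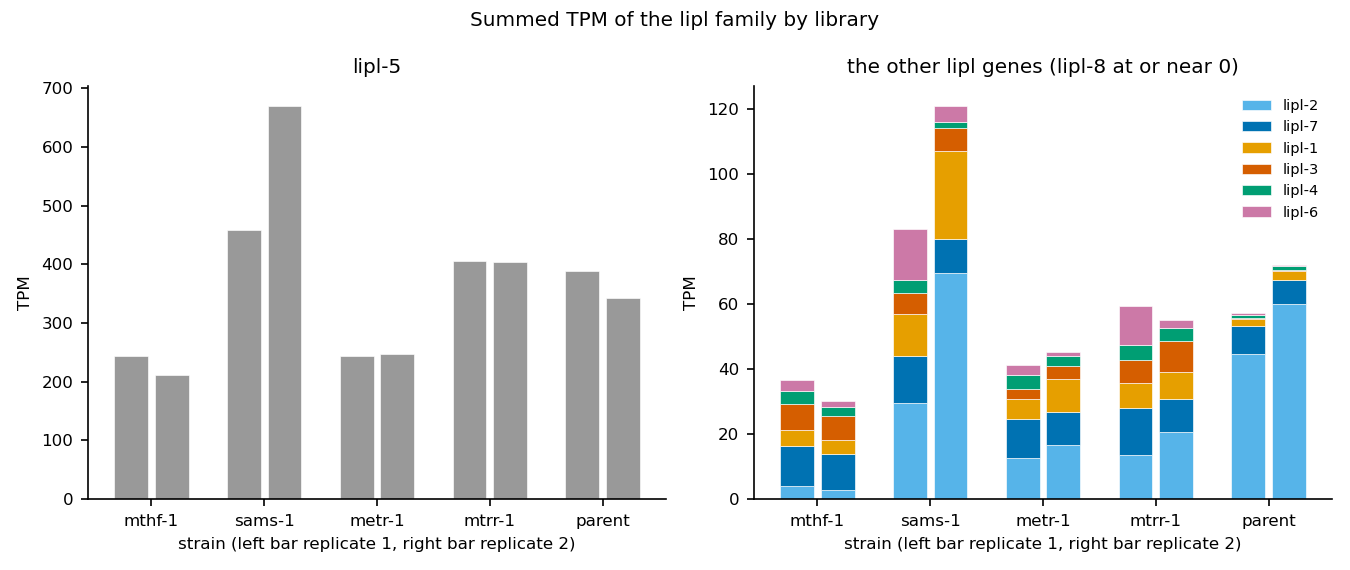
Bars give TPM by strain, with replicate 1 on the left and replicate 2 on the right of each pair. The left panel shows lipl-5 alone, and the right panel stacks the other members on their own scale, where lipl-2 makes up most of the bar in both parent libraries and little of it in mthf-1(ww50).

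Of the 8 members, 7 had a mean of at least 1 TPM and entered the fit across 14418 genes. lipl-3 and lipl-6 reached that mean through the mutant strains, since both parent libraries lay under 1 TPM. lipl-8 was listed at 0 in 8 libraries and at 0.04 TPM in replicate 1 of mthf-1(ww50) and replicate 2 of metr-1(ww52), so it was not tested.

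**Figure D2:**
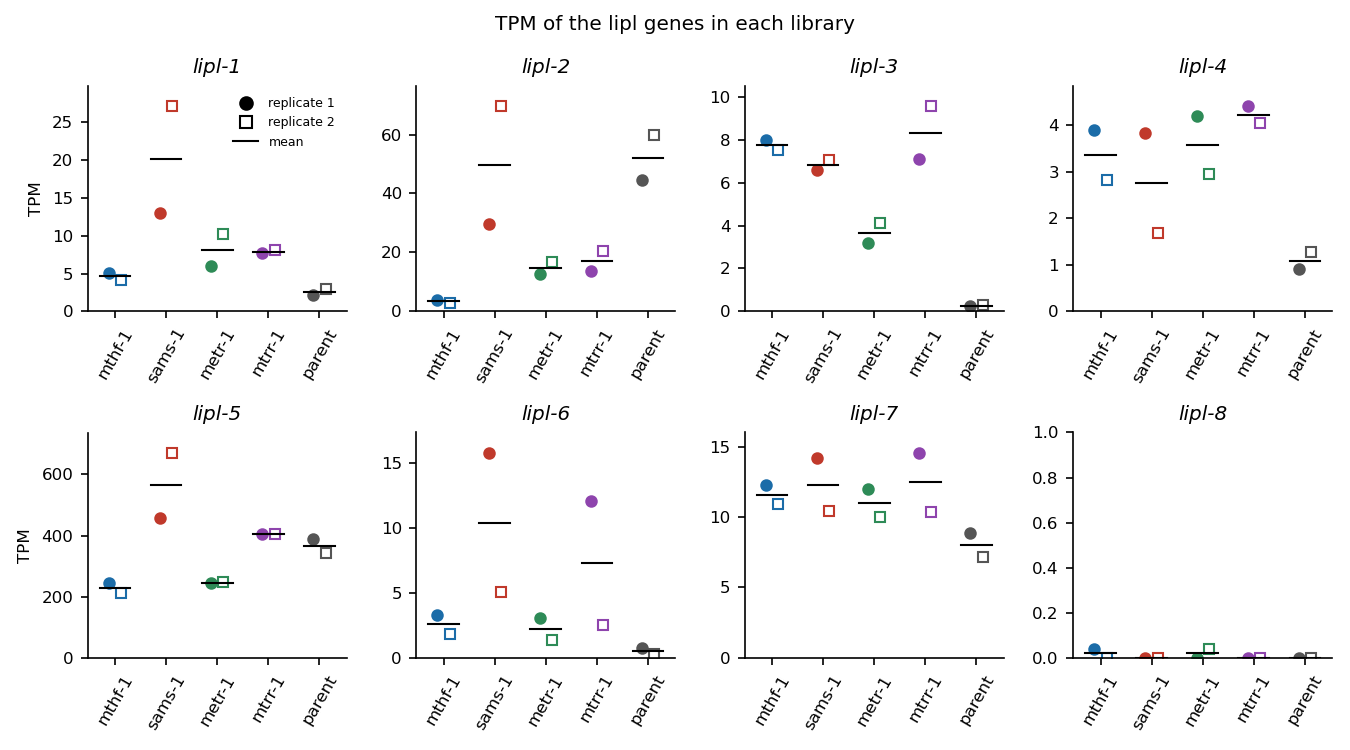
Each panel shows 1 lipl gene on a linear TPM axis from 0, with filled circles for replicate 1, open squares for replicate 2 and a line at the mean of the 2. lipl-1, lipl-3, lipl-4, lipl-6 and lipl-7 lie above the parent in all 8 mutant libraries, while lipl-2 and lipl-5 lie on different sides of it.

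lipl-3 is a fasting-induced lipase gene under HLH-30, and it was near 0 in the parent. Its level was 7.99 and 7.53 TPM in mthf-1(ww50), 6.58 and 7.05 TPM in sams-1(ww51), 3.19 and 4.11 TPM in metr-1(ww52) and 7.09 and 9.55 TPM in mtrr-1(ww56), against 0.23 and 0.28 TPM in the parent. All 8 mutant libraries lay above both parent libraries, with the metr-1(ww52) pair lowest among the mutants. The mean TPM was 30.4 times the parent's for mthf-1(ww50), 26.7 times for sams-1(ww51), 14.3 times for metr-1(ww52) and 32.6 times for mtrr-1(ww56). On the log2(TPM + 1) scale of the fit, which shrinks changes of low genes, the differences were 2.80, 2.64, 1.88 and 2.88 in the same order (SE 0.18).

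A difference counted as called at a limma adjusted p under 0.01 with a fold change over 1.5. lipl-3 passed these cutoffs in all 4 mutants and no other member passed them in any. Over all genes tested, the share called higher was 0.153% for mthf-1(ww50), 0.0624% for sams-1(ww51), 0.25% for metr-1(ww52) and 0.111% for mtrr-1(ww56). The share called lower was 0.0347%, 0.0139%, 0.0416% and 0.0208% in the same order. Since the family was singled out on this contrast, the count is printed beside these shares and nothing is read from it. Without either parent library no member passed in any mutant, and without either mthf-1(ww50) library lipl-3 passed in 1.

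lipl-4, the lipase of the lysosome-to-nucleus signalling described above, was also higher in all 8 mutant libraries than in the parent. It was at 3.90 and 2.81 TPM in mthf-1(ww50), 3.82 and 1.68 TPM in sams-1(ww51), 4.2 and 2.95 TPM in metr-1(ww52) and 4.40 and 4.05 TPM in mtrr-1(ww56), against 0.91 and 1.27 TPM in the parent. The groups did not overlap, although replicate 2 of sams-1(ww51) came close to the parent. The log2 differences from the parent were 1.05, 0.79, 1.12 and 1.33 (SE 0.306).

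lipl-1, another lipase gene of the fasting response, was highest in sams-1(ww51). Its level was 5.09 and 4.2 TPM in mthf-1(ww50), 13.04 and 27.11 TPM in sams-1(ww51), 6.03 and 10.21 TPM in metr-1(ww52) and 7.72 and 8.05 TPM in mtrr-1(ww56), against 2.16 and 2.90 TPM in the parent. Both sams-1(ww51) libraries lay above all others, and the metr-1(ww52) and mtrr-1(ww56) libraries overlapped each other. The log2 difference from the parent was 0.68 for mthf-1(ww50), 2.50 for sams-1(ww51), 1.34 for metr-1(ww52) and 1.34 for mtrr-1(ww56) (SE 0.356). With the replicate number as a block, lipl-1 also passed the cutoffs in sams-1(ww51), in a fit that called 2.46% of all genes higher in that mutant. As for lipl-3, nothing is read from this.

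lipl-6 was low in the parent and variable in the mutants. It was at 3.31 and 1.83 TPM in mthf-1(ww50), 15.76 and 5.08 TPM in sams-1(ww51), 3.08 and 1.40 TPM in metr-1(ww52) and 12.04 and 2.55 TPM in mtrr-1(ww56), against 0.72 and 0.33 TPM in the parent. Replicate 1 was the higher library in every strain, and the highest values by far were replicate 1 of sams-1(ww51) and of mtrr-1(ww56). The log2 differences from the parent, 1.21, 2.74, 1.05 and 2.17, had the largest SE of the family (0.704).

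The order of lipl-6 among the libraries was close to that of the molting genes. Their summed level was 2710 and 1310 TPM in mthf-1(ww50), 4540 and 2910 TPM in sams-1(ww51), 3400 and 1440 TPM in metr-1(ww52) and 4630 and 1600 TPM in mtrr-1(ww56), against 932 and 371 TPM in the parent. The same 2 libraries, replicate 1 of sams-1(ww51) and of mtrr-1(ww56), were highest for both. The part of this marker shift in the lipl-6 values was not tested.

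**Figure D3:**
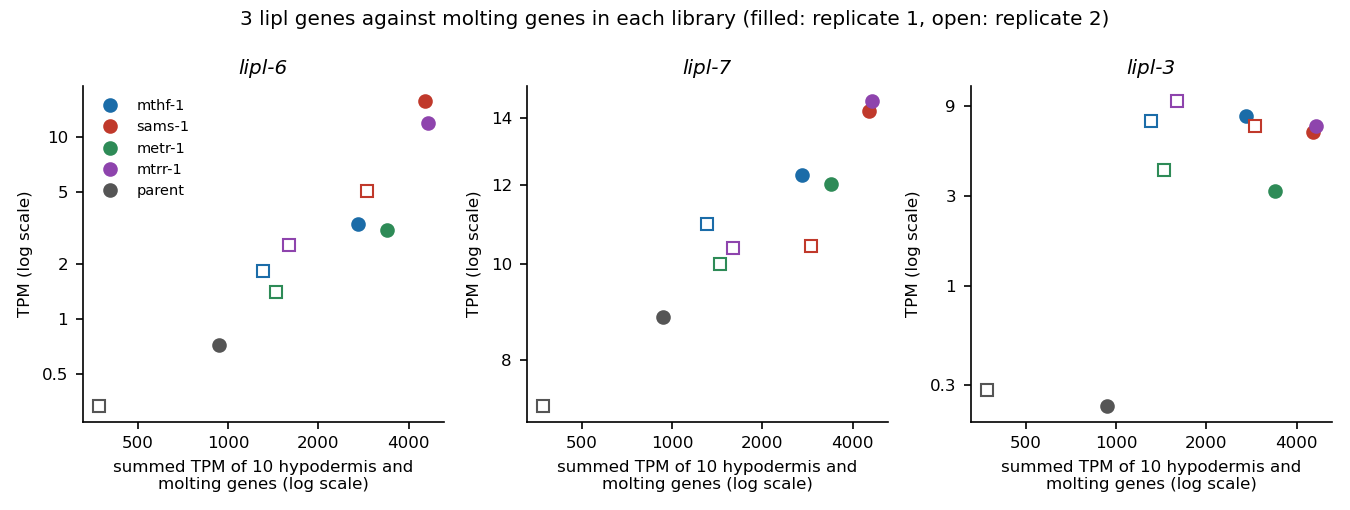
Each point is 1 library, filled for replicate 1 and open for replicate 2, with the summed TPM of the 10 molting genes on the x axis and the TPM of lipl-6, lipl-7 or lipl-3 on the y axis, all on log scales. lipl-6 is highest where the molting genes are highest. lipl-3 is between 3.19 and 9.55 TPM in the mutant libraries, where the molting sum is 1310 to 4630 TPM. In the parent libraries, with sums of 932 and 371 TPM, lipl-3 is at 0.23 and 0.28 TPM. The part of the molting genes in either was not tested.

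lipl-7 is the only member outside chromosome V. It was at 12.29 and 10.95 TPM in mthf-1(ww50), 14.22 and 10.43 TPM in sams-1(ww51), 12.03 and 9.99 TPM in metr-1(ww52) and 14.56 and 10.37 TPM in mtrr-1(ww56), against 8.85 and 7.19 TPM in the parent. The mutants overlapped each other and lay above both parent libraries, the nearest being 9.99 TPM in metr-1(ww52) and 8.85 TPM in the parent. The log2 differences were 0.49, 0.55, 0.41 and 0.57 (SE 0.221).

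Thus 5 members, lipl-1, lipl-3, lipl-4, lipl-6 and lipl-7, were above both parent libraries in all 8 mutant libraries. The same held for 12.9% of all genes tested. The summed molting genes separated mutant and parent libraries in the same way, and their part in the differences of these 5 members was not tested.

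lipl-2 differed from these 5 in direction. It was at 3.88 and 2.88 TPM in mthf-1(ww50), 29.61 and 69.54 TPM in sams-1(ww51), 12.64 and 16.69 TPM in metr-1(ww52) and 13.52 and 20.50 TPM in mtrr-1(ww56), against 44.46 and 59.98 TPM in the parent. It was below both parent libraries in all mutants but sams-1(ww51), a pattern shared by 13.8% of all genes for mthf-1(ww50), 15.5% for metr-1(ww52) and 22.1% for mtrr-1(ww56), and the sams-1(ww51) libraries lay on either side of the parent. The mean level in mthf-1(ww50) was 0.0647 times that of the parent. The log2 differences were -3.60 for mthf-1(ww50), -0.18 for sams-1(ww51), -1.76 for metr-1(ww52) and -1.58 for mtrr-1(ww56) (SE 0.407). The value for sams-1(ww51) turned with the library left out, at 0.42 without its replicate 1 and -0.78 without its replicate 2. With the replicate number as a block, lipl-2 passed the cutoffs for lower in mthf-1(ww50), where that fit called 0.0624% of all genes lower, and nothing is read from this either.

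lipl-5, the most abundant member, was on both sides of the parent. Its level was 244.01 and 210.88 TPM in mthf-1(ww50), 458.01 and 670.38 TPM in sams-1(ww51), 243.43 and 246.76 TPM in metr-1(ww52) and 405.08 and 404.20 TPM in mtrr-1(ww56), against 389.16 and 342.12 TPM in the parent. The sams-1(ww51) and mtrr-1(ww56) pairs lay above both parent libraries, as did 32.2% and 34.6% of all genes in these mutants. The mthf-1(ww50) and metr-1(ww52) pairs lay below, as did 13.8% and 15.5% of all genes. The log2 differences were -0.68 for mthf-1(ww50), 0.60 for sams-1(ww51), -0.57 for metr-1(ww52) and 0.15 for mtrr-1(ww56) (SE 0.184).

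**Figure D4:**
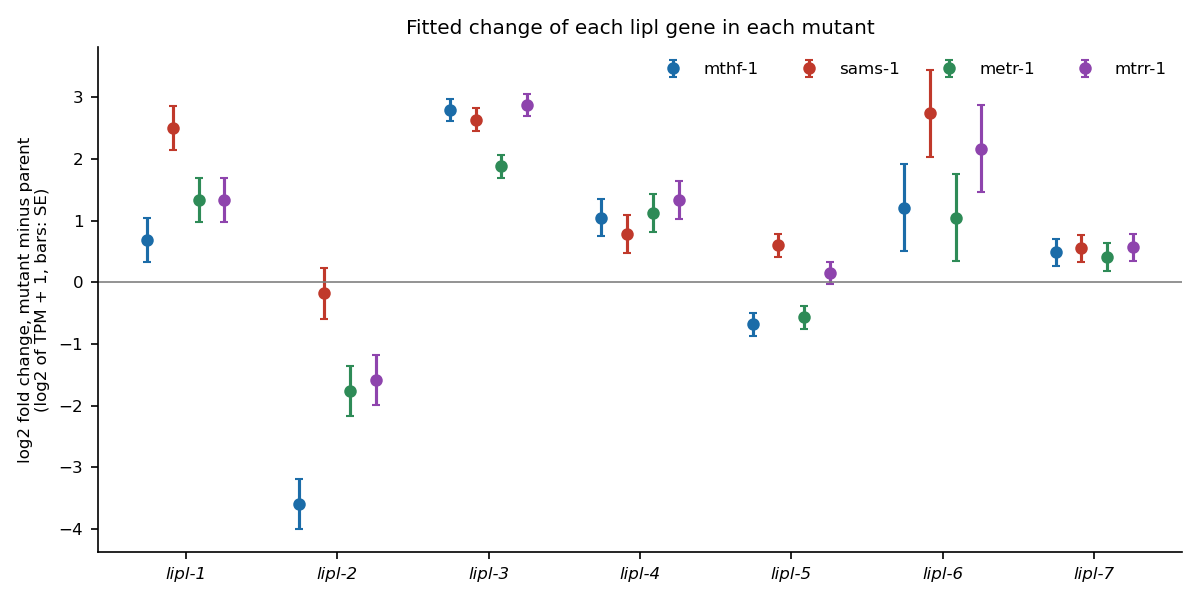
Points give the fitted log2 difference of each mutant from the parent on the log2(TPM + 1) scale for the 7 tested members, with bars of 1 SE. lipl-3 lies between 1.88 and 2.88 in the 4 mutants, lipl-2 spans -3.60 to -0.18, and lipl-5 spans -0.68 to 0.60.

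The order of the 5 strains was not the same for each member. The mean of sams-1(ww51) was the highest of all strains for lipl-1, lipl-5 and lipl-6, that of mtrr-1(ww56) for lipl-3, lipl-4 and lipl-7, and that of the parent for lipl-2. Among the mutants, mthf-1(ww50) had the lowest mean of lipl-1, lipl-2 and lipl-5, in each case without overlap with sams-1(ww51). For lipl-4 and lipl-7 every mutant overlapped its neighbour in the order, and only the step to the parent was free of overlap. For lipl-3, mthf-1(ww50) and mtrr-1(ww56) overlapped, and metr-1(ww52) was separated from all other strains. The share of all genes with the same separations in the order was not counted, so nothing is read from them.

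Whether the members differed between the 4 mutants was tested with a limma F test that does not use the parent. No member passed an adjusted p of 0.01, against 0.0277% of all genes. The adjusted p was 0.0727 for lipl-2, 0.077 for lipl-5, 0.158 for lipl-3 and 0.193 for lipl-1, and between 0.413 and 0.956 for lipl-4, lipl-6 and lipl-7. At an unadjusted p under 0.05 the count was 4 of 7 members (lipl-1, lipl-2, lipl-3 and lipl-5), and 17.5% of all genes reached that level. With the replicate block these were 5 of 7 members, lipl-6 being added, and 31.1% of all genes. In that fit the adjusted p was 0.0187 for lipl-2, 0.0311 for lipl-5, 0.0373 for lipl-3 and 0.0479 for lipl-1, again with no member past 0.01 and 0.25% of all genes past it.

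sams-1(ww51) was set against the mean of the other 3 mutants, because sams-1 acts in using methionine and the other 3 genes in making it. lipl-2 averaged 49.6 TPM in sams-1(ww51) and 11.7 TPM in the other 3 mutants, a log2 difference of 2.13 (SE 0.333, limma adjusted p = 0.19). lipl-5 averaged 564 TPM in sams-1(ww51) and 292 TPM in the other 3, a log2 difference of 0.97 (SE 0.15, limma adjusted p = 0.19). lipl-1 averaged 20.1 TPM in sams-1(ww51) and 6.88 TPM in the other 3, a log2 difference of 1.38 (SE 0.29, limma adjusted p = 0.315). Each of these 3 members was higher in both sams-1(ww51) libraries than in the 6 libraries of the other mutants, as were 2.84% of all genes tested, and none of the 3 passed the correction over all genes.

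For the other members the same difference was smaller against its error. It was 1.26 for lipl-6 (SE 0.575), 0.12 for lipl-3 (SE 0.147), 0.06 for lipl-7 (SE 0.18) and -0.38 for lipl-4 (SE 0.25), with limma adjusted p between 0.645 and 0.946. No gene out of 14418 passed the cutoffs in this comparison, a share of 0% with and without the replicate block. At an unadjusted p under 0.05, 3 of 7 members and 7.94% of all genes were counted, and 4 of 7 members and 16.9% of all genes with the block. With 1 library left out in turn the difference ran from 0.53 to 1.99 for lipl-6. It took both signs for lipl-4, from -0.8 to 0.04, where 0.04 is the value without replicate 2 of sams-1(ww51), and for lipl-7, from -0.14 without replicate 1 of sams-1(ww51) to 0.27 without its replicate 2.

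Replicates with the same number deviated together across the strains, so the members were also compared between replicate 1 and replicate 2 over the 5 strains. lipl-6 was higher in replicate 1 by 1.02 on the log2 scale (SE 0.238, limma adjusted p = 0.0523) and lipl-7 by 0.31 (SE 0.074, limma adjusted p = 0.0551), each in 5 of 5 strains. lipl-1, lipl-2 and lipl-3 were higher in replicate 1 in only 1 strain each, with log2 differences of -0.36, -0.45 and -0.15. No member was called in this comparison, against 1.01% of all genes. At an unadjusted p under 0.05 the count was 2 of 7 members, lipl-6 and lipl-7, and 30.9% of all genes.

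**Figure D5:**
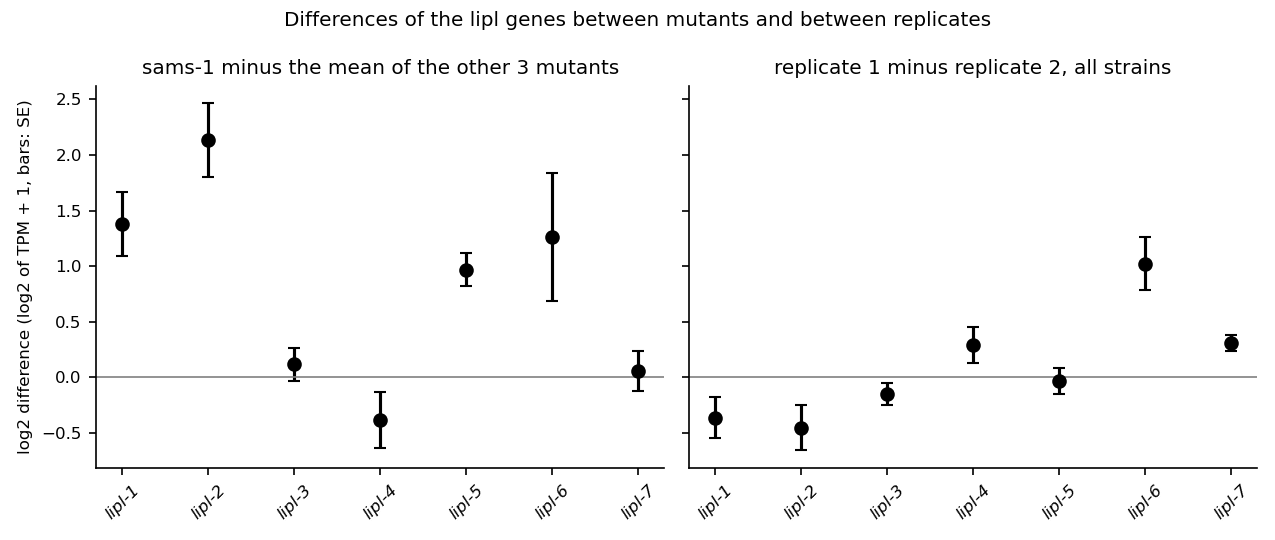
Points give log2 differences on the log2(TPM + 1) scale for the 7 tested members, with bars of 1 SE. On the left, sams-1(ww51) is set against the mean of the other 3 mutants, with lipl-2 at 2.13, lipl-1 at 1.38 and lipl-5 at 0.97, and on the right replicate 1 against replicate 2 over all strains, with lipl-6 at 1.02.

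In the WBcel235 annotation 7 of the 8 members lie on chromosome V and lipl-7 lies on chromosome IV. lipl-3 spans bases 521595 to 524218 on the minus strand with 7 exon blocks, and lipl-5 spans bases 385746 to 387740 on the plus strand with 6 exon blocks, so that these 2 members are 133.9 kb apart. The others on chromosome V are lipl-2 at 9791567 to 9793241, lipl-4 at 6550171 to 6552186, lipl-6 at 6931475 to 6934312, lipl-1 at 12919986 to 12921692 and lipl-8 at 14745684 to 14748708. The exons of lipl-3 share 23 bases with srw-107 on the same strand, a chemoreceptor gene with a mean of 0.01 TPM. Those of lipl-4 overlap 2 short noncoding genes on the opposite strand, both at 0 TPM. The span of each other member overlaps no annotated gene.

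Of the 14 nearest tested genes on either side of the 7 tested members, none was called in any mutant. Over all genes tested, 0.368% were called in at least 1 mutant, so nothing is read from this count. Those given here were named after their values were seen. lipl-3 had a mean log2 difference from the parent of 2.55 over the 4 mutants, against 0.14 and 0.61 for its neighbours, the nuclear receptor genes nhr-210 and nhr-58. lipl-2 had -1.78, against -0.08 and 0.51 for its neighbours ztf-7 and F46B6.9. The largest neighbouring value was 2.54 for K04A8.20, which lies 378 bases from lipl-4. That gene was low, with a lowest level of 0.0 TPM and a highest of 9.54 TPM.

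To place lipl-3 among all genes, its log2(TPM + 1) profile over the 10 libraries was compared with every other tested profile after centring each on its mean. The closest were T05E12.6 with a root-mean-square difference of 0.31, C49F5.12 with 0.419, the chemoreceptor gene srh-237 with 0.427, the lysozyme gene lys-6 with 0.431 and the nuclear hormone receptor gene nhr-68 with 0.456. The median over all tested genes was 1.09, and the closest lipl member was lipl-4 with 0.762. T05E12.6 was at 111 to 182 TPM in the mutant libraries, against 20.0 and 16.6 TPM in the parent libraries. nhr-68, which acts with nhr-10 in the response to propionate, was at 70.0 to 85.7 TPM in mutant libraries, against 7.20 and 8.09 TPM in parent libraries. These points share their libraries, and those of lipl-3 are set mainly by the gap between mutants and parent.

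The same measure was applied to 3 further members after their values had been seen. The profile of lipl-2 was closest to asm-3, which encodes an acid sphingomyelinase, with 0.496, then to sdz-24 with 0.508 and the predicted acid phosphatase gene pho-11 with 0.539, where the median over all genes was 1.4. pho-11 averaged 48.6 TPM in mthf-1(ww50), 466 TPM in sams-1(ww51), 162 TPM in metr-1(ww52) and 291 TPM in mtrr-1(ww56), against 398 TPM in the parent. asm-3 averaged 0.175 TPM in mthf-1(ww50) and 5.89 TPM in sams-1(ww51), against 6.67 TPM in the parent. Both genes were picked for their likeness to lipl-2, so their shared pattern is no separate result.

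The profile of lipl-6 was closest to erp-44.2 with 0.111. T26E4.4 followed with 0.155, the transcription factor gene mab-3 with 0.156, T13C5.7 with 0.167 and lpr-1, which encodes a lipocalin, with 0.168. The median over all genes was 1.138. erp-44.2 was at 19.5 to 123 TPM in the mutant libraries, against 12.8 and 9.38 TPM in the parent libraries. The profile of lipl-5 lay within 0.208 of its 5 closest genes. They were btb-17 with 0.201, gba-1, a homolog of the lysosomal glucocerebrosidase gene, with 0.205, E02C12.8 with 0.205, clec-65 with 0.206 and Y43F8B.24 with 0.208. The median over all genes was 0.581. The genes named for lipl-6 and lipl-5 were picked for their likeness, so their shared patterns are no separate result. gba-1 averaged 17.6 TPM in mthf-1(ww50), 39.3 TPM in sams-1(ww51), 21.9 TPM in metr-1(ww52) and 29.9 TPM in mtrr-1(ww56), against 29.1 TPM in the parent.

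The known regulators of the family were examined next. This list and the gene lists after it were drawn up with earlier results of these data known. Their p-values therefore describe these libraries and are no independent support. Of 26 listed regulators of lysosomal lipolysis 25 were tested and none was called in any mutant by limma, with or without the replicate block. The background for a call in at least 1 mutant was 0.368% of all genes without the block and 4.96% with it. At an unadjusted p under 0.05 in at least 1 mutant, 10 of the 25 regulators and 38.0% of all genes were counted.

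mxl-3, the repressor of lipl genes in fed animals, had the largest values among the named regulators. It was at 95.15 and 120.92 TPM in mthf-1(ww50), 78.95 and 88.04 TPM in sams-1(ww51), 77.96 and 104.07 TPM in metr-1(ww52) and 82.44 and 92.60 TPM in mtrr-1(ww56), against 49.26 and 30.63 TPM in the parent. All 8 mutant libraries lay above both parent libraries, as for 12.9% of all genes tested. The log2 differences were 1.44, 1.08, 1.19 and 1.15 (SE 0.251), with limma adjusted p between 0.0673 and 0.107, so mxl-3 was not called.

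hlh-30, the activator, lay slightly above the parent. It averaged 45.3 ± 3.62 TPM in mthf-1(ww50), 44.8 ± 2.26 TPM in sams-1(ww51), 47.5 ± 2.61 TPM in metr-1(ww52) and 46.5 ± 5.74 TPM in mtrr-1(ww56), against 39.9 ± 3.42 TPM in the parent (SD, n = 2 each). Its log2 differences were 0.17 to 0.25 (SE 0.134), with limma adjusted p between 0.329 and 0.624. As for mxl-3, all 8 mutant libraries lay above both parent libraries, a pattern of 12.9% of all genes tested. The nearest were 42.46 TPM in mtrr-1(ww56) and 42.33 TPM in the parent.

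The other named regulators also stayed short of a call. daf-16, the FOXO gene on which lipl-4 depends in animals without a germline, had log2 differences of 0.36 to 0.53 (SE 0.141), and nhr-49 had 0.31 to 0.47 (SE 0.149). nhr-80 had its largest difference in sams-1(ww51), 0.62 (SE 0.139, limma adjusted p = 0.101). For daf-16, nhr-49 and nhr-80 all 8 mutant libraries also lay above both parent libraries, as for 12.9% of all genes tested. sbp-1, the SREBP ortholog, was at -0.15 to 0.01 (SE 0.302). lbp-8, the chaperone that works with LIPL-4, fell short of a mean of 1 TPM and was not tested. It was at 0.99 and 0.81 TPM in mthf-1(ww50), 0.65 and 0.53 TPM in sams-1(ww51), 0.22 and 0.09 TPM in metr-1(ww52) and 0.92 and 0.82 TPM in mtrr-1(ww56), against 0.15 and 0.20 TPM in the parent. The metr-1(ww52) libraries overlapped the parent and the other mutant libraries lay above it. Of all genes tested, 32.2% lay above both parent libraries in sams-1(ww51) and 34.6% in mtrr-1(ww56). The share for mthf-1(ww50) was not counted, and nothing is read from the separation.

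Among 83 tested lysosomal hydrolases and membrane proteins, 3 were called in at least 1 mutant, all higher, beside 0.368% of all genes. The median log2 difference of the list was -0.07 for mthf-1(ww50), 0.19 for sams-1(ww51), -0.09 for metr-1(ww52) and 0.14 for mtrr-1(ww56), where the medians over all genes were 0.12, 0.04, 0.09 and 0.05. asp-13, an aspartyl protease gene, was at 171.20 and 100.63 TPM in mthf-1(ww50), 172.65 and 184.84 TPM in sams-1(ww51), 184.91 and 205.96 TPM in metr-1(ww52) and 196.75 and 293.67 TPM in mtrr-1(ww56), against 27.15 and 17.42 TPM in the parent. It rose in metr-1(ww52) by 3.11 on the log2 scale (SE 0.317, limma adjusted p = 0.00812) and in mtrr-1(ww56) by 3.41 (limma adjusted p = 0.00974). These 2 calls were lost when any 1 of the 10 libraries was left out, when the values were rescaled between libraries, and with no filter on low values. With the replicate block asp-13 was called for sams-1(ww51) (limma adjusted p = 0.00558) and mtrr-1(ww56) (limma adjusted p = 0.00435) and missed the cutoff for metr-1(ww52) (limma adjusted p = 0.0104).

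asp-12, a second gene for an aspartyl protease, rose in mthf-1(ww50) alone among the calls. It was at 45.23 and 57.12 TPM in mthf-1(ww50), against 3.65 and 3.3 TPM in the parent, a log2 difference of 3.54 (SE 0.287, limma adjusted p = 0.00382). Its differences in the other mutants were 0.49 for sams-1(ww51), 1.25 for metr-1(ww52) and 1.68 for mtrr-1(ww56). The call was lost without any 1 library of mthf-1(ww50), sams-1(ww51), mtrr-1(ww56) or the parent. The third gene was pmp-5, an ABC transporter gene whose human relative ABCD4 acts in moving vitamin B12 out of the lysosome. It was called in all 4 mutants, with log2 differences of 3.02 to 3.58 (SE 0.168), and in 2 mutants without replicate 2 of the parent. The authors already report pmp-5 as induced in these mutants, so its call is no separate result. Without any 1 library of mthf-1(ww50), mtrr-1(ww56) or the parent, 1 gene of the list was called. With the replicate block 7 were, beside 4.96% of all genes. The 4 added were named after their values were seen. They were the cathepsin genes cpr-4 and tag-196, ppt-1, which encodes a palmitoyl-protein thioesterase, and the scavenger receptor gene scav-2. Their mean log2 differences over the 4 mutants were 2.27 for cpr-4 (SE 0.424), 0.91 for tag-196 (SE 0.221), 0.96 for ppt-1 (SE 0.173) and -0.78 for scav-2 (SE 0.446).

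The 3 remaining lists held no call without the block. None of 29 autophagy genes was called by limma with or without it, and their medians lay between 0.22 and 0.28 in the 4 mutants. At an unadjusted p under 0.05 in at least 1 mutant, 17 of them were counted, beside 38.0% of all genes. None of 28 tested cytosolic lipases and lipid droplet genes was called by limma. Without the block 10 were at an unadjusted p under 0.05 in at least 1 mutant, beside 38.0% of all genes. At an unadjusted p under 0.05 in at least 1 mutant, 16 of them were counted with the block, beside 7751 of the 14418 genes tested. With the block 4 were called, beside 4.96% of all genes. Of these 4, named after their values were seen, lbp-5, a fatty acid binding protein gene, was called in all 4 mutants with a mean log2 difference of -1.28 (SE 0.245). The lipase gene lips-17 was called in 1 with a mean of -1.57 (SE 1.298), lips-15, of the same family, in 2 with a mean of 1.03 (SE 0.167), and hosl-1, the homolog of hormone-sensitive lipase, in 1 with a mean of 1.21 (SE 0.246).

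None of 33 tested fasting and fatty acid oxidation genes was called by limma. At an unadjusted p under 0.05 in at least 1 mutant, 19 were counted, beside 38.0% of all genes. With the block 5 were called, beside 4.96% of all genes. Among these 5, also named after their values were seen, ech-6, an enoyl-CoA hydratase gene, was called in all 4 mutants with a mean log2 difference of 1.24 (SE 0.127), and ech-7, of the same family, in 1 with a mean of 1.42 (SE 0.242). fat-5, a fatty acid desaturase gene, was called in 1 mutant with a mean of 3.1 (SE 0.307), and fat-6, a second desaturase gene, in 1 with a mean of 1.12 (SE 0.181). gpd-1, a glyceraldehyde-3-phosphate dehydrogenase gene, was called lower in mtrr-1(ww56), with a mean over the 4 mutants of -0.32 (SE 0.384).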

How the data were processed

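Each library is RNA-seq of whole animals from 1 of 5 strains, 2 biological replicates a strain, grouped by the strain and genotype labels. The authors mapped paired-end reads with Bowtie2 to the genome of WormBase WS271 and estimated expression with RSEM. The deposited values are TPM per gene, which sum to 1000000 in each library. TPM do not keep the read number behind a value, and no interval for counting error can be had. Symbols came from a table of gene names for 44018 of the 46903 genes, and 0 columns were left unassigned. Positions and exons are from the WBcel235 annotation, not checked against the authors' release.

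limma 3.58.1 in R 4.3.3 was fitted to log2(TPM + 1) with 1 mean per strain and a trend of variance with mean. The 14418 genes that averaged 1 TPM or more entered, and p-values were adjusted over all of them by the Benjamini-Hochberg method. Tests were two-sided. A call needed an adjusted p under 0.01 and a fold change over 1.5. Both values are those the authors state. The submitters' processing notes name DESeq2, which the methods describe on read counts in the paragraph on later libraries, and it could not be run here on TPM. The fit was tested on simulated data. The members and gene lists were chosen with earlier results of these data known.

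The labels number the replicates 1 and 2, but whether libraries of equal number were grown or sequenced together is not given in the sources used here. The pairing is read from the data: the deviations of same-numbered libraries from their strain means correlated at 0.166 to 0.736 in the 10 pairs of strains. The fit with the replicate number as a block is given beside a result where it changes a call or a count by more than 1.5 times. Beyond the term biological duplicate, nothing says that replicates were separate cultures, so p-values measure the spread between these libraries, which may be partly technical.

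The genes named are all lipl members, 7 fixed regulators, up to 4 called genes per list by the size of their mean change, and the 5 genes closest to lipl-3. Exceptions are said to be named after their values were seen. Python 3.11.15 with pandas 2.3.3 and matplotlib 3.10.9 made the tables and figures. unc-119 is carried by the transgene and was left out of the neuron markers.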

Additional observations from a re-analysis of the deposited data

Results flagged for a closer look

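lipl-5 stood on opposite sides of the parent in different mutants. Both sams-1(ww51) and both mtrr-1(ww56) libraries lay above the 2 parent libraries, as for 32.2% and 34.6% of all genes. Both libraries of mthf-1(ww50) and of metr-1(ww52) lay below them, as for 13.8% and 15.5% of all genes. The share of all genes with the joint pattern was not counted. In mtrr-1(ww56) the log2 difference from the parent was 0.15 (SE 0.184). The log2 difference was 1.28 for sams-1(ww51) minus mthf-1(ww50), 1.17 for sams-1(ww51) minus metr-1(ww52), 0.83 for mtrr-1(ww56) minus mthf-1(ww50) and 0.72 for mtrr-1(ww56) minus metr-1(ww52). These pairs were not tested one by one. The limma F test over the 4 mutants gave an adjusted p of 0.077 for lipl-5 and did not pass 0.01.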

How the results depend on the processing

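The number of lipl comparisons past the cutoffs was 4, all of them lipl-3. At an adjusted p under 0.05 it was 5, lipl-2 being added in 1 mutant. The numbers with the replicate block and with libraries left out also include members other than lipl-3. It was 0 when each mutant was fitted with the parent alone, 6 with the replicate block, and 0 to 3 when 1 library was left out. Calls among lysosomal genes numbered 3, with 6 at an adjusted p under 0.05, 7 with the replicate block, 0 when each mutant was fitted with the parent alone and 1 to 2 when 1 library was left out. Calls among cytosolic lipases numbered 0, with 1 at an adjusted p under 0.05 and 4 with the block, and among fasting genes 0, with 3 at an adjusted p under 0.05 and 5 with the block. By the cutoffs, the block changed no call among regulators, autophagy genes or the tests of members between mutants. The sams-1(ww51) minus other mutants value of lipl-4 ranged from -0.8 to 0.04 with 1 library left out, and 0.04 is its value without replicate 2 of sams-1(ww51). Of the fold changes of members under the alternatives, 440 moved by less than the replicate spread and 28 moved by more. lipl-3 was among the latter in all 4 mutants. With 0.1 in place of 1 added to the TPM, its log2 differences were 4.47 for mthf-1(ww50), 4.29 for sams-1(ww51), 3.39 for metr-1(ww52) and 4.56 for mtrr-1(ww56). With quantile normalization they were 2.56, 2.39, 1.69 and 2.66 in the same order. Quantile normalization shifted the median of all genes in mthf-1(ww50) by -0.114 on the log2 scale. lipl-4 and lipl-6 are not tested under a filter at a mean of 5 TPM. The TPM give no read numbers, so the precision of low members such as lipl-8 is unknown.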
